A study of Mus musculus with 24 samples.

Results

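The genes described here are the secreted Wnt ligands, their Frizzled, Lrp and Ror receptors and the secreted inhibitors of the Dkk and Sfrp families, measured by RNA-Seq in the hippocampus of Aged mice. They were chosen by symbol alone: every row of the count files whose symbol is Wnt, Fzd or Ror followed by its number and letter, Lrp5 or Lrp6, Dkk1 to Dkk4, or Sfrp1 to Sfrp5 was taken. This gave 41 of the 49568 symbols in each file, namely 19 Wnt ligands, 14 receptors (10 Frizzled, 2 Lrp and 2 Ror genes) and 8 inhibitors (4 Dkk and 4 Sfrp genes). Each of the 41 matched exactly 1 protein-coding gene of the GENCODE M21 annotation of the mouse genome build GRCm38. Together the members took between 0.0638% and 0.0799% of the counts on genes in the 21 libraries that entered the comparisons.

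The study crossed genotype with housing in male mice. WT mice were compared with MSK1 KD mice, which carry a knock-in point mutation that leaves the kinase MSK1 without activity (KD stands for kinase dead), and mice of both genotypes lived either in standard housing or, from 18 months of age, in enriched housing. Hippocampal RNA was taken at 21 to 23 months, 1 mouse per library and 6 libraries per group. The groups are called WTSH, WTEE, KDSH and KDEE. Samples 4 and 7 of WTSH and sample 6 of KDSH did not pass the study's quality control and entered no comparison, which left 4 WTSH, 6 WTEE, 5 KDSH and 6 KDEE libraries. The mutation alters the protein, so the level of the MSK1 transcript Rps6ka5 does not check the genotype labels. It was between 929 and 1110 normalized counts (TMM over all 24 libraries) in 20 of the 21 libraries and 612 in WTEE sample 10.

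Wnt proteins are lipid-modified secreted ligands. In the canonical branch they bind a Frizzled receptor together with Lrp5 or Lrp6, which stabilizes beta-catenin and switches on genes through TCF/LEF factors. In the non-canonical branches Frizzled or Ror receptors signal to the cytoskeleton and to calcium without beta-catenin. Sfrp proteins carry a Frizzled-like domain and bind Wnts outside the cell, whereas Dkk1, Dkk2 and Dkk4 bind Lrp5 and Lrp6. In the hippocampus the pathway is known for its part in the birth of dentate granule neurons and in the upkeep of synapses. MSK1 phosphorylates the transcription factor CREB, which binds the cyclic AMP response element (CRE).

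The promoters of 4 members are shown because 3 of them (Sfrp5, Fzd4 and Fzd7) moved together between libraries and the fourth (Wnt3) was the single member called between groups by any test. They are RefSeq windows on GRCm38.p6 from 250 bases before to 50 bases after the annotated start, read in the direction of transcription. Sfrp5 lies at chr19:42202203-42202502 on the minus strand, and the other windows are on the plus strand, Fzd4 at chr7:89404116-89404415, Fzd7 at chr1:59481897-59482196 and Wnt3 at chr11:103773925-103774224. Capitals mark a match to TGACG, the core of the CRE, and lower case marks all other bases.
Sfrp5: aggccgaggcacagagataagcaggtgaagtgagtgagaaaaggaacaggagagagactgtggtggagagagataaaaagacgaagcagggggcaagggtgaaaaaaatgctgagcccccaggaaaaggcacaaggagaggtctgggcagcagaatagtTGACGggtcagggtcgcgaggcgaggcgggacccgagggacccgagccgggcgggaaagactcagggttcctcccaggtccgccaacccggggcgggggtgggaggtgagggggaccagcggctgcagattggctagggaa
Fzd4: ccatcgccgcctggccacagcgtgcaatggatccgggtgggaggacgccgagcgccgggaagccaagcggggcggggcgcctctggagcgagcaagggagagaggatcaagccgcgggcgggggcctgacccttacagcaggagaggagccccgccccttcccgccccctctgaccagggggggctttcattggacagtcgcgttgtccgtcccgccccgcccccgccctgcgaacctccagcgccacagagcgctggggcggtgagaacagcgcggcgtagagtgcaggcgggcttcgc
Fzd7: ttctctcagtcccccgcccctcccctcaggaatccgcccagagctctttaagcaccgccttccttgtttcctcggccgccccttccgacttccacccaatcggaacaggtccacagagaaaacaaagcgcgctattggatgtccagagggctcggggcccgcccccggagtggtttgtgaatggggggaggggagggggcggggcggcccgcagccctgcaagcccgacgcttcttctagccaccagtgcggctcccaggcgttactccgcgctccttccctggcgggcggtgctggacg
Wnt3: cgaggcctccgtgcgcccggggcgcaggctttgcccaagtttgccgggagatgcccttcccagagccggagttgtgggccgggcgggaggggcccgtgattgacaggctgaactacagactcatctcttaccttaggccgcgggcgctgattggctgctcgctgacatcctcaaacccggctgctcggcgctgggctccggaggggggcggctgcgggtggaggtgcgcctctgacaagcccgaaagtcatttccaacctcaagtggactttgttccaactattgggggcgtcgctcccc
The window of Sfrp5 held 1 match to TGACG on the printed strand, and those of Fzd4, Fzd7 and Wnt3 held none. Windows were found for 27 of the 41 members (30 windows, since Wnt5b and Wnt11 have more than 1). Searched on both strands, the full CRE TGACGTCA occurred in none of the 30 windows, and in 1.79% of the 32851 promoters of all genes. The core TGACG, which the full element contains on each strand, occurred in 5 of 30 windows (Ror1, Sfrp5, Wnt10b and both of Wnt11) against 20.8% of all promoters. CTTTGA, the core bound by TCF/LEF factors, occurred in 5 of 30 windows (Dkk1, Fzd1, Ror1, Wnt5b and Wnt11) against 16%. TAATCC, a core bound by OTX factors, of which Otx2 is a choroid plexus factor, occurred in 3 of 30 windows (Fzd1, Sfrp2 and Wnt11) against 7.06%. These matches describe letters only.

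The 21 libraries held between 27410239 and 71907130 counts on genes. Neuronal, astrocytic and oligodendrocytic markers were above 3 counts in every library, with summed levels of 5940 to 8980, 1240 to 1910 and 3950 to 6220 CPM. Markers of 3 neighbouring tissues varied far more. Those of the pituitary were at 239 CPM in KDSH sample 8 and between 1.88 and 27.4 CPM in the other 20 libraries, and the part of this library's pituitary RNA in the comparisons with KDSH was not tested. Ttr, which encodes the thyroxine carrier made by choroid plexus epithelium, fell into 2 separate clusters, with 5 libraries between 2440 and 8860 CPM (WTSH sample 19, WTEE samples 10 and 13, KDEE samples 12 and 14) and the other 16 between 4.69 and 85.2 CPM. The summed markers of meningeal fibroblasts ranged from 83 to 532 CPM and were highest in KDEE sample 12 and WTEE sample 10. WTEE sample 10 also had the lowest neuronal sum (5940 CPM, against at least 7770 CPM in the others), and it was the lowest or the highest of the 21 libraries for 11 of the 38 tested members, beside 55.9% of all genes. KDEE sample 12 was the lowest or the highest for 11 members, beside 14.1% of all genes. In bulk RNA, fewer cells of a type and less RNA per cell cannot be told apart.

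Levels were compared between genes per exon length, as RPKM (reads per exon length and sequencing depth, here after TMM scaling between libraries). One gene, classed here with the inhibitors by its family name, outweighed all other members together. Dkk3 is a divergent member of the Dickkopf family and not among the Lrp binders named above. It had a median of 121 RPKM (range 101 to 134 over the 21 libraries). This made up 97.7% of the summed level of the 8 genes classed as inhibitors. Whether Dkk3 inhibits Wnt signalling here was not tested. In normalized counts (counts scaled by TMM to a library of 48083717) Dkk3 was at 20400, 19400, 20600 and 21700 in the 4 WTSH libraries and at 19300, 21300, 19600, 21700 and 19600 in the 5 KDSH libraries. Its lowest, median and highest values were 16300, 19200 and 20500 in WTEE and 17500, 18900 and 20100 in KDEE. All 4 groups overlapped.

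Sfrp1 came next among the inhibitors at a median of 1.26 RPKM, followed by Sfrp2 at 0.568, Sfrp5 at 0.415, Sfrp4 at 0.327 and Dkk2 at 0.225. Sfrp2 was at 52, 51.7, 66.1 and 55.1 normalized counts in WTSH, 80.5, 62.8, 58.5, 49.5 and 62.3 in KDSH, 38.5 to 74.2 (median 59.5) in WTEE and 49.3 to 66 (median 59) in KDEE. The classical Lrp antagonists Dkk1 and Dkk4 did not pass the filter on low counts and were at or under 2 raw counts in each of the 21 libraries, which is below the floor of 3 counts used here for detection.

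The leading ligands were Wnt7b and Wnt7a, a pair of close paralogs that act on neurons and on brain endothelium. Wnt7b had a median of 10.4 RPKM and a range of 8.13 to 11.9, which lies wholly above the range of Wnt7a (median 5.43, 3.87 to 6.86). Wnt4 (median 3.68, 2.5 to 6.22) and Wnt9a (median 3.08, 1.79 to 3.6) overlapped with the genes next to them in the order. The 3 leading ligands made up 60.7% of the summed ligand level. Wnt7b was at 2760, 2680, 2160 and 2460 normalized counts in WTSH and 2540, 2760, 2510, 1910 and 2150 in KDSH, and Wnt7a at 855, 871, 913 and 876 in WTSH and 897, 1050, 743, 625 and 790 in KDSH. The enriched groups lay between 2130 and 2800 for Wnt7b and between 590 and 905 for Wnt7a, and overlapped with the standard-housed groups except that all 6 WTEE libraries were below the 4 WTSH libraries for Wnt7a (590 to 842 against 855 to 913).

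Below these came Wnt10a (2.07 RPKM), Wnt2 (1.78), the non-canonical ligand Wnt5a (1.68), Wnt5b (0.997), Wnt2b (0.786) and Wnt3 (0.677). The other 9 ligands were lower, from Wnt1 (0.319), Wnt11 (0.282), Wnt6 (0.214), Wnt10b (0.201), Wnt16 (0.177), Wnt9b (0.164) and Wnt8b (0.131) down to Wnt3a (0.0435) and Wnt8a (0.0235). Wnt3a, the ligand that drives growth of the embryonic hippocampus, rested on 1 to 17 raw counts per library, and Wnt8a, with at most 6, was the third member that did not pass the filter.

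Receptor levels were spread more evenly than those of the ligands or inhibitors. The co-receptor Lrp6 led at a median of 4.66 RPKM (3.39 to 6.36), followed by Fzd9 at 3.4 (2.66 to 4.51) and Fzd1 at 2.96 (2.19 to 3.91), and these 3 overlapped in range and made up 42.5% of the summed receptor level. Fzd7 (2.92), Fzd2 (2.77), Fzd4 (1.91), Fzd6 (1.86), the second co-receptor Lrp5 (1.52), Fzd3 (1.32) and Fzd8 (1) followed. Ror1 (0.81), Fzd10 (0.268), Fzd5 (0.253) and Ror2 (0.248) were the lowest. Lrp6 was at 3060, 3230, 3650 and 3060 normalized counts in WTSH, 2940, 3150, 3180, 3260 and 3200 in KDSH, 2230 to 3110 (median 2920) in WTEE and 2580 to 4180 (median 2960) in KDEE. For Fzd9 the libraries ranged from 350 to 393 in WTSH, 346 to 407 in WTEE, 303 to 437 in KDSH and 293 to 497 in KDEE, and for Fzd1 from 574 to 704, 442 to 707, 547 to 789 and 555 to 706 in the same order. None of these 3 receptors separated any pair of groups.

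**Figure D1:**
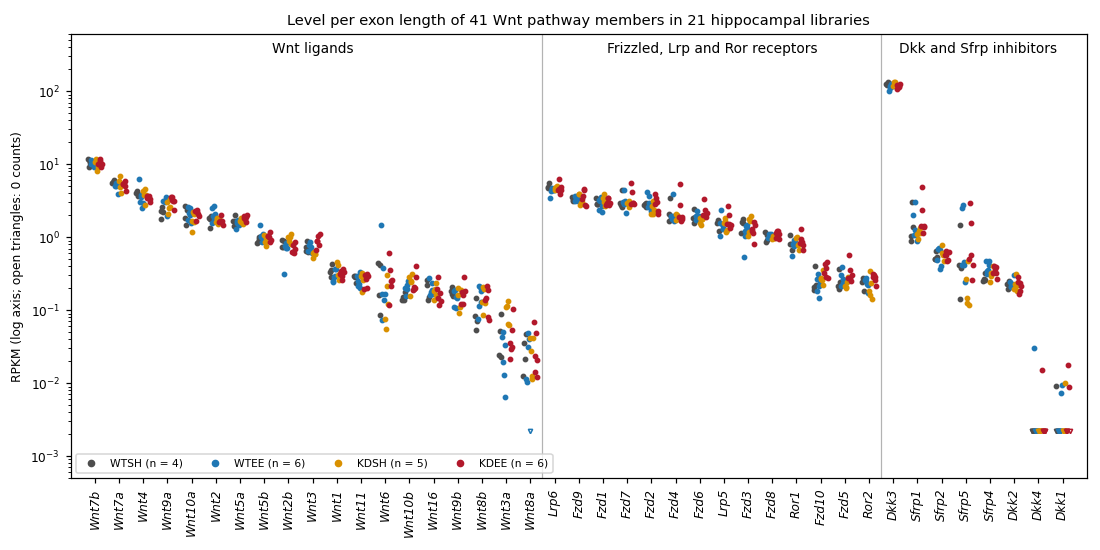
RPKM (log axis) of each of the 41 members in the 21 libraries, 1 point per library coloured by group, with members ordered by their median within ligands, receptors and inhibitors; open triangles near the lower edge stand for libraries with 0 counts. Dkk3 stands at 101 to 134 RPKM, above every other member, and Sfrp5, Wnt6 and Wnt3a show the widest vertical scatter.

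The members varied more within groups than genes in general, with a median within-group SD of 0.28 on the log2 CPM scale over the 38 tested members and 0.21 over all 20187 tested genes. The widest were Sfrp5 (SD 1.25), Wnt6 (1.05), Sfrp1 (0.65) and Wnt3a (0.6), and the narrowest were Dkk3 (0.1), Fzd8 (0.13), Wnt5a (0.14) and Wnt7b (0.15). Over the 21 libraries the highest value was 25.8 times the lowest for Sfrp5, 26.7 times for Wnt6 and 1.33 times for Dkk3.

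The first comparison asked what enrichment changed in WT mice. No member was called by edgeR's quasi-likelihood test (a call needed an adjusted p under 0.05 and a log2 fold change beyond 0.38 in either direction), as no gene of the 20187 tested was (0%), and none was called by DESeq2, which called 0.00529% of its tested genes. The smallest adjusted p value of a member was 0.651 with edgeR. At an unadjusted p under 0.05 with edgeR, 4 of the 38 tested members were higher in WTEE and 0 lower, 10.5% beside 6.55% of all genes (3.95% higher and 2.6% lower), and the median log2 fold change was -0.03 over the members and 0.01 over all genes. The groups did not overlap for 1 member, Wnt7a, beside 0.986% of all genes. The exact permutation test of that difference gave an unadjusted p of 0.0238, where the smallest p the design allows is 0.00476. Wnt7a was picked for its non-overlap in these same values, so this p is descriptive. By edgeR its log2 fold change was -0.19 ± 0.12, with an adjusted p of 0.651.

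The inhibitor Sfrp4 had the smallest unadjusted p value in this comparison. Its normalized counts were 49.9, 53.7, 65.2 and 52.1 in WTSH and ran from 63.4 over a median of 78 to 94.2 in WTEE. Only WTSH sample 19 reached into the WTEE range. The log2 fold change was 0.52 ± 0.15 (SE) with an adjusted p of 0.651 by edgeR. Wnt9a was at 361, 286, 417 and 356 in WTSH and at 313 to 569 (median 497) in WTEE, where WTEE sample 21 alone fell among the WTSH libraries, with a log2 fold change of 0.43 ± 0.15. Wnt8b, a ligand of the cortical hem in development, was at 13.8, 8.94, 24.4 and 12 in WTSH and at 12.5 to 36.4 (median 26.1) in WTEE, and its log2 fold change was 0.79 ± 0.36. Both had an adjusted p of 0.651 by edgeR. The fourth member under an unadjusted p of 0.05 was Wnt10b, at 0.49 ± 0.23.

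The same question in MSK1 KD mice turned on Wnt3, a canonical ligand known to promote the birth of neurons in the adult dentate gyrus (chromosome 11, 103774150 to 103817957, plus strand). Wnt3 was at 77, 90.8, 91.9, 86.7 and 85.8 normalized counts in KDSH and ran from 100 over a median of 131 to 162 in KDEE. The 6 KDEE libraries all lay above the 5 KDSH libraries. The means were 86.4 ± 5.87 (SD, n = 5) in KDSH and 132 ± 22.5 (SD, n = 6) in KDEE. An exact permutation test of the difference gave an unadjusted p of 0.00433 (smallest possible 0.00216).

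Whether Wnt3 was called depended on the test. Refitted here, DESeq2, the study's tool, gave a log2 fold change of 0.6 and an adjusted p of 0.0333. Wnt3 was thus 1 of 14 genes called (0.0866% of those tested). The study itself reported a different number of genes for this comparison. With edgeR the log2 fold change was 0.61 ± 0.13 (SE), the adjusted p 0.297, and no gene was called (0%). When each of the 21 libraries was left out in turn, DESeq2 still called Wnt3 in 8 of 21 fits, and its log2 fold change lay between 0.54 and 0.67. The call was lost in 13 fits, without WTSH samples 2 and 23, WTEE samples 11, 16 and 17, KDSH samples 1, 3, 8 and 24, and KDEE samples 12, 14, 15 and 22, where the adjusted p ranged from 0.0521 to 0.288. With all 24 libraries the adjusted p from DESeq2 was 0.0517, without the 5 libraries high in Ttr it was 0.0601, and with Ttr as a covariate it was 0.682 at a log2 fold change of 0.54.

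In standard housing the 5 KDSH libraries (77 to 91.9) lay below the 4 WTSH libraries (108, 95.4, 133 and 93.2), with a gap between 91.9 and 93.2. The unadjusted exact permutation p was 0.00794 (the smallest the design allows). The log2 fold change was -0.31 ± 0.14 at an adjusted p of 1 by edgeR. Without WTSH sample 19 the log2 fold change was -0.2, and with all 24 libraries, where WTSH samples 4 and 7 were at 77.6 and 59.4 on the scale of the 24, it was -0.13 and the groups overlapped. In enriched mice WTEE (90.3 to 127, median 103) and KDEE (100 to 162, median 131) overlapped, and the log2 fold change between genotypes was 0.32 ± 0.12 with an adjusted p of 0.683 by edgeR. Within WT, enrichment left the mean at 105 ± 14.1 (SD, n = 6) against 107 ± 18.3 (SD, n = 4). The difference between the enrichment effects of the genotypes, tested as an interaction, was 0.64 ± 0.19 on the log2 scale with an adjusted p of 0.536 by edgeR and 0.266 by DESeq2, and so did not pass the threshold. KDSH was thus the lowest and KDEE the highest group, and WTSH and WTEE lay between them.

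**Figure D2:**
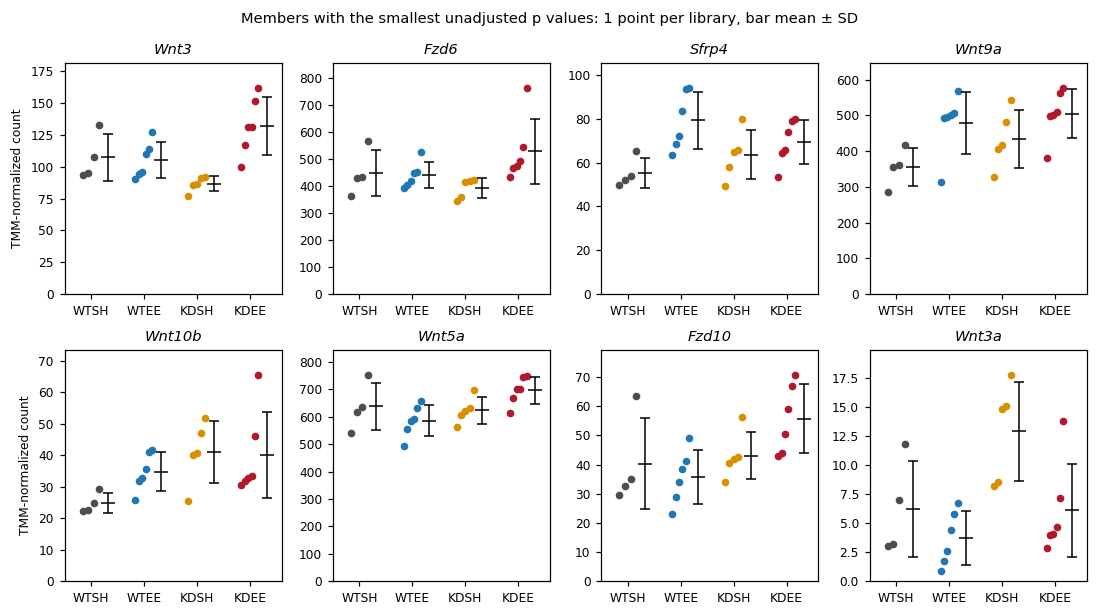
TMM-normalized counts (linear axes from 0) of 8 members by group, 1 point per library sorted by value, with the group mean ± SD drawn beside the points. Wnt3 in KDEE (100 to 162) lies wholly above KDSH (77 to 91.9), and Fzd6 in KDEE (433 to 763) wholly above KDSH (344 to 421), whereas for the other 6 members the groups overlap in each of the 4 comparisons.

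Of the other members in MSK1 KD mice, the receptor Fzd6, which is known for planar cell polarity, was the second whose groups did not overlap. It was at 359, 421, 344, 417 and 414 normalized counts in KDSH and at 433 to 763 (median 482) in KDEE. The unadjusted exact permutation p was 0.00649, and the log2 fold change was 0.43 ± 0.13 with an adjusted p of 0.345 by edgeR. KDEE sample 12, the library highest in Ttr, was the highest for Fzd6. The log2 fold change of Fzd6 was 0.25 without the 5 libraries high in Ttr and 0.24 with Ttr as a covariate. Non-overlap was found for these 2 of 38 members, beside 1.84% of all genes. The inhibitor Sfrp5 had the largest fitted difference, 2.19 ± 0.8 on the log2 scale with an adjusted p of 0.377 by edgeR. Its KDSH libraries were at 24.1, 11.6, 13.6, 42.9 and 10.6, and its KDEE libraries ran from 23.6 over a median of 49.1 to 273. The 2 KDEE libraries high in Ttr held 273 and 141, the other 4 at most 52.3, and the log2 fold change was 0.93 without the 5 libraries high in Ttr and 0.38 with Ttr as a covariate.

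At an unadjusted p under 0.05 by edgeR, 5 members were higher in KDEE (Wnt3, Fzd5, Fzd6, Sfrp1 and Sfrp5) and 2 lower (Wnt2b and Wnt3a), 18.4% of the 38 beside 11.6% of all genes (5.64% higher and 5.98% lower). Wnt2b was at 205, 177, 206, 163 and 224 in KDSH and at 121 to 171 (median 133) in KDEE, with a log2 fold change of -0.47 ± 0.18. Of the 14 receptors, 11 had a fold change above 0 with a median of 0.23, beside 50.4% of all genes above 0 with a median of 0, and 5 of the 14 receptors were among the members that moved with Ttr. KDEE sample 12 was the highest of the 21 libraries for Fzd4, Fzd5, Fzd6, Fzd7, Lrp5, Lrp6 and Ror1. The receptors were read in the same libraries, so they do not count as independent of each other. No KDSH library was high in Ttr, and the part of choroid plexus RNA in these receptor differences was not tested.

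Genotype was compared in standard-housed mice next, where all 20187 tested genes had an adjusted p of 1 by edgeR and neither tool called any gene (0%). Wnt10b and Wnt3a were higher and Wnt3 lower in KDSH at an unadjusted p under 0.05, 7.89% of the 38 members beside 1% of all genes (0.5% in each direction). Wnt10b, a canonical ligand, was at 22.3, 24.8, 22.6 and 29.1 in WTSH and at 47.1, 25.6, 40.7, 40 and 51.7 in KDSH, so that only KDSH sample 3 fell into the WTSH range. Its log2 fold change was 0.73 ± 0.24. Wnt3a was at 3.19, 6.96, 11.8 and 3.01 in WTSH and at 14.9, 15.1, 17.8, 8.57 and 8.23 in KDSH, with a log2 fold change of 1.01 ± 0.48 on counts of 17 or fewer. Without WTSH sample 19 that difference was 1.52. Wnt3 was the single member whose groups did not overlap, beside 0.644% of all genes.

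In enriched mice edgeR called no gene between genotypes (0%) and DESeq2 called 0.438% of its tested genes, none of them a member. Fzd10, a canonical Frizzled receptor, had the smallest unadjusted p of the members and ran from 23.1 over a median of 36.3 to 49.3 in WTEE and from 43.1 over 54.9 to 70.8 in KDEE. Its log2 fold change was 0.64 ± 0.21 with an adjusted p of 0.426 by edgeR. Wnt5a, which signals mainly through Ror2 and the non-canonical branch, ran from 494 over 589 to 656 in WTEE and from 615 over 701 to 750 in KDEE, a small shift of 0.25 ± 0.08 with an adjusted p of 0.44 by edgeR. Both pairs of groups overlapped in a few libraries. Fzd6 and Wnt3 were also higher and Wnt2 lower in KDEE at an unadjusted p under 0.05, 13.2% of the 38 members beside 4.99% of all genes (1.77% higher and 3.21% lower). Of the 14 receptors, 13 had a fold change above 0 with a median of 0.18, beside 50.5% of all genes above 0. The receptors were read in the same libraries, so they are not independent of each other. KDEE sample 12 was the highest of the 21 libraries for several receptors, and WTEE samples 10 and 17 were each the lowest for several. In the other direction, WTEE sample 10 was highest for Fzd2, KDEE sample 15 lowest for Fzd4 and KDEE sample 22 lowest for Fzd9. This comparison and the one of KDEE with KDSH share the KDEE libraries. No member separated the 2 groups, beside 0.624% of all genes.

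Averaged over genotypes, enrichment gave an unadjusted p under 0.05 by edgeR for 10 members, 26.3% beside 18.9% of all genes (9.77% higher and 9.13% lower), and no member was called by edgeR (0.00495% of all genes were) or by DESeq2 (0.233%). Wnt9a (0.33 ± 0.11), Sfrp4 (0.32 ± 0.11) and Wnt3 (0.29 ± 0.1) had the smallest p values, with adjusted p values of 0.2, 0.2 and 0.202 by edgeR. Fzd5, Fzd6 and Sfrp5 were the others higher in enriched mice, and Dkk3, Fzd3, Wnt2b and Wnt3a were lower at the same unadjusted threshold. The log2 difference of the abundant Dkk3 was -0.11 ± 0.04, with an adjusted p of 0.232 by edgeR. Averaged over housing, genotype gave 3 members at that threshold, 7.89% beside 1.9% of all genes (0.758% higher and 1.14% lower), all higher in MSK1 KD, and called none (0%). Wnt10b (0.46 ± 0.15), Wnt3a (0.8 ± 0.34) and Fzd10 (0.37 ± 0.16) all had an adjusted p of 1 by edgeR, and the value of Wnt3a was 1.47 without the 5 libraries high in Ttr. For the interaction, Wnt3, Fzd6 (0.46 ± 0.19) and Wnt5a (0.28 ± 0.13) were above 0 at that threshold, 7.89% beside 3.26% of all genes (0.971% above and 2.29% below 0), with adjusted p values of 0.536, 1 and 1 by edgeR. None was called by edgeR (0%) or by DESeq2 (0.0762% of its tested genes). The interaction of Fzd6 was 0.18 without the 5 libraries high in Ttr and 0.3 with Ttr as a covariate. Over the 14 receptors 13 interaction terms were above 0 with a median of 0.21, beside 49% of all genes. KDEE sample 12, the highest of the 21 libraries for several receptors, enters each of these terms, so they are not independent. The interaction is built from the enrichment effects, of which 11 of 14 were above 0 in MSK1 KD and 4 of 14 in WT (median -0.04, beside 51.5% of all genes). Between genotypes in standard housing 4 of 14 receptors were above 0 (median -0.04, beside 49.9%).

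**Figure D3:**
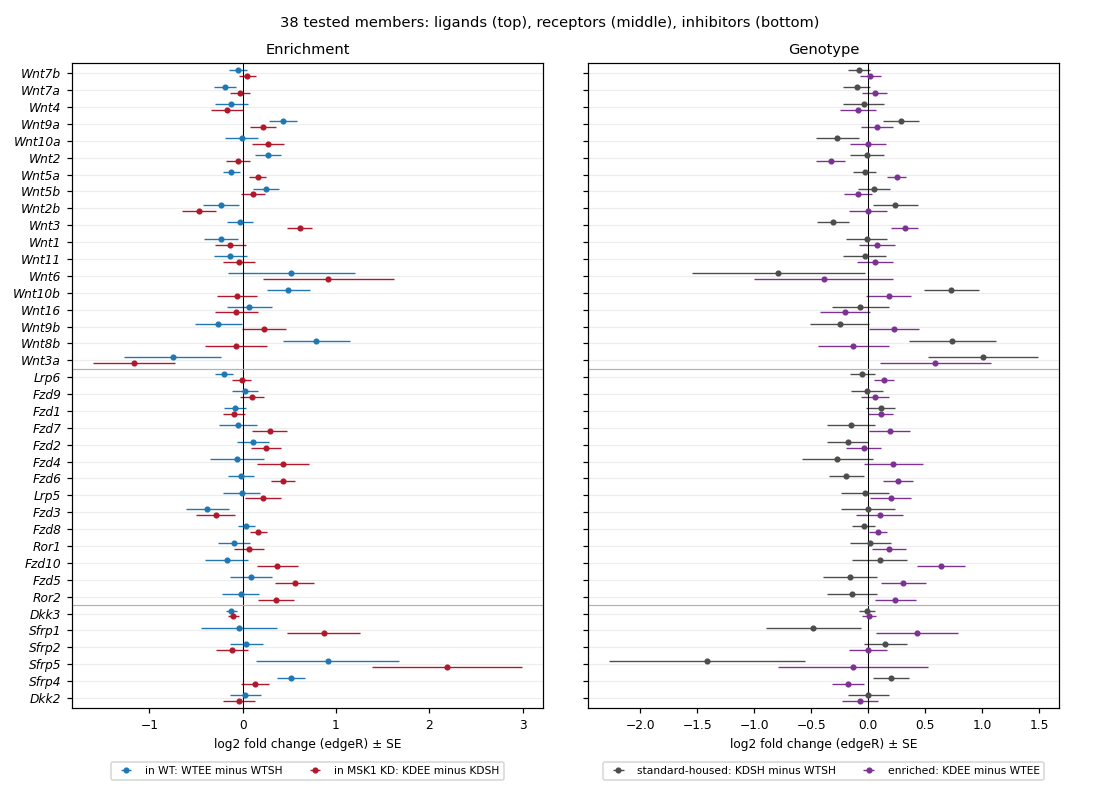
Log2 fold change ± SE from edgeR of the 38 tested members, with enrichment in WT and in MSK1 KD mice on the left and genotype in standard-housed and in enriched mice on the right. Sfrp5, Wnt6, Wnt3a and Sfrp1 have the widest error bars, and most members lie within 0.5 of 0.

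Between libraries of a group the inhibitors Sfrp1 and Sfrp5 and 5 Frizzled receptors rose with Ttr. The slope of each gene on the log2 level of Ttr, with the 4 groups in the model, was called by edgeR (adjusted p under 0.05) for 7 of the 38 members, 18.4% beside 6.99% of all genes, and all 7 slopes were positive, beside 6.19% of all genes with a called positive and 0.798% with a called negative slope. No ligand was among them. A slope is the change in log2 level per unit of log2 Ttr.

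Sfrp1 (chromosome 8, 23411502 to 23449632, plus strand) was at 643 normalized counts in WTSH sample 19, 421 and 634 in WTEE samples 10 and 13, and 1020 and 495 in KDEE samples 12 and 14. In the 16 libraries low in Ttr it lay between 184 and 302, so the 2 clusters did not overlap. Its slope was 0.188 ± 0.019 with an adjusted p of 3.12e-07 by edgeR. Sfrp5 (chromosome 19, 42197971 to 42202252, minus strand), the close paralog of Sfrp1, was at 136, 232, 253, 273 and 141 in the same 5 libraries and between 10.6 and 52.3 in the other 16. The clusters were again separate, and the slope was the steepest of the members at 0.343 ± 0.037 (adjusted p 1.11e-06 by edgeR).

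Fzd4, the receptor for Norrin and several Wnts, was at 1130, 638, 1260, 1710 and 880 in the 5 libraries and between 533 and 682 in the other 16. WTEE sample 10, at 638, was the exception among the 5. The slope was 0.123 ± 0.019 (adjusted p 0.000164 by edgeR). Fzd7 was at 981, 655, 979, 1210 and 919, against 465 to 685 in the other 16, with a slope of 0.082 ± 0.014 (adjusted p 0.000363). Fzd5, a receptor for Wnt7a at synapses, was at 122, 71.3, 130, 188 and 118, against 64.6 to 100 in the other 16, and its slope was 0.077 ± 0.019 (adjusted p 0.0134). WTEE sample 10 again stood with the low libraries for both. Fzd5 shares 17.8% of its exon bases with another annotated gene, so its counts are less certain. Smaller shares overlap another gene for Sfrp2 (16.1%), Wnt11 (8.8%), Wnt7b (6.61%), Wnt5a (4.58%) and Fzd6 (3.15%), and the same limit holds for them.

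Fzd2 and Fzd6 had the shallowest of the called slopes, 0.053 ± 0.016 (adjusted p 0.0443 by edgeR) and 0.043 ± 0.013 (adjusted p 0.0474). Both were close to the threshold. When each library was left out in turn, Fzd4, Fzd7, Sfrp1 and Sfrp5 were called in all 21 fits, Fzd5 in 19, Fzd2 in 9 and Fzd6 in 6. Without KDEE sample 12 the number of called members was 4 in place of 7. Without WTEE sample 10 it was 9, the added members being Fzd10, Lrp5 and Lrp6, while Fzd2 was lost.

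The relation with Ttr rests on the contrast of the 2 clusters. Fitted in the 16 libraries low in Ttr alone, no member was called and 2 of all genes were. The slopes there were 0.0531 for Sfrp1 and -0.0149 for Sfrp5. No correlation was taken over the pooled libraries, because the clusters are separate. Within the 16, the correlation with Ttr (log2 CPM) lay between -0.47 and 0.48 over the 38 members, and the smallest adjusted p was 0.989 for Pearson's r and 1 for Spearman's rho (100000 permutations within groups, adjusted over all genes). The coefficients were not adjusted for group, whereas the permutations kept each library in its group. A coefficient and its p can thus diverge, as for Wnt3 (r = 0.3, permutation p = 0.989). By Pearson's r, 1 member had an unadjusted permutation p under 0.05, Wnt2 (r = -0.31, p = 0.0191, rho = -0.41, p = 0.0303), beside 2.26% of all genes. By Spearman's rho Dkk3 was also under 0.05 (rho = -0.55, permutation p = 0.026), with an r of -0.47 (p = 0.103). For Sfrp1 r was 0.45 (permutation p = 0.198) and rho 0.41 (p = 0.363), and r was 0.46 without the 2 libraries farthest from the median of Ttr. The cluster of 5 is too small for a correlation.

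**Figure D4:**
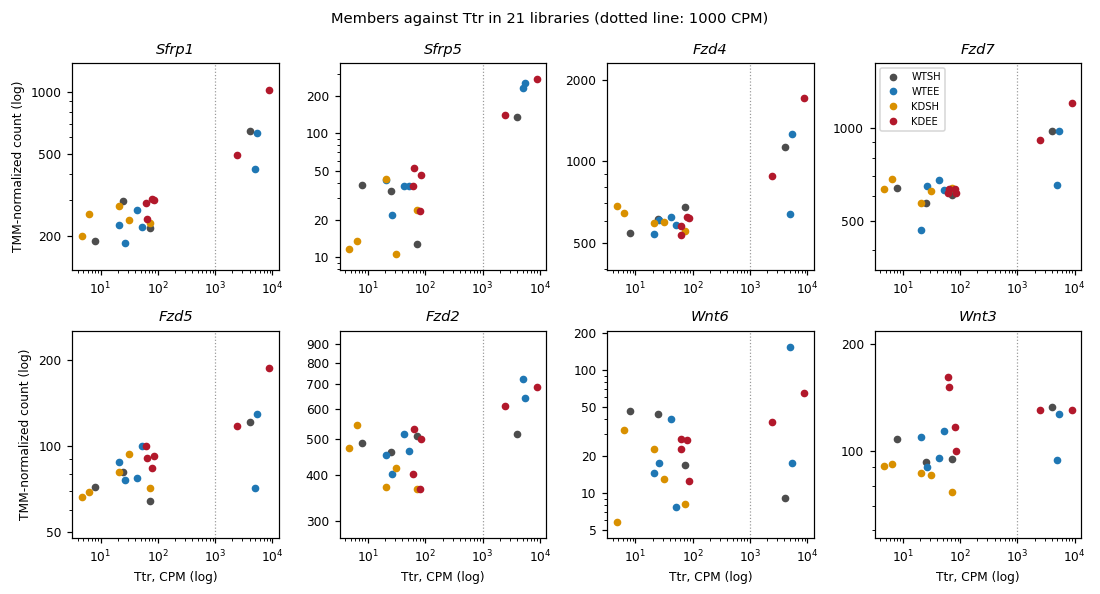
TMM-normalized counts (log axis) of 8 members against the level of Ttr in CPM (log axis), 1 point per library coloured by group, with a dotted line at 1000 CPM. Sfrp1 and Sfrp5 are higher in all 5 libraries to the right of the line than in the 16 to its left, Fzd4 and Fzd7 in 4 of the 5, and Wnt3 shows no such step.

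Ttr was not the only marker that moved. Over the 21 libraries the log2 level of Ttr and the mean log2 level of the other choroid plexus markers had a Pearson r of 0.98, and Ttr and the mean of the 10 meningeal markers one of 0.75, as a description over 2 clusters. With the other choroid plexus markers in place of Ttr, the 7 members and Lrp5 were called. A slope on the meningeal markers was called for 7 members, 18.4% beside 19.3% of all genes, namely Wnt6 (1.5 ± 0.24), Sfrp5 (1.65 ± 0.32), Sfrp1 (0.89 ± 0.17), Fzd4 (0.56 ± 0.15), Fzd7 (0.4 ± 0.1), Fzd2 (0.35 ± 0.08) and Wnt4 (0.31 ± 0.09). With both in 1 model, Sfrp1, Sfrp5 and Fzd4 kept a called positive slope on Ttr (0.163 ± 0.027, 0.292 ± 0.055 and 0.113 ± 0.029, adjusted p 0.00103, 0.00384 and 0.0474 by edgeR), beside 1.69% of all genes with a called slope on Ttr and 0.535% with one on the meningeal markers. Whether these transcripts come from the marked tissues was not tested.

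Wnt6 had the steeper slope on the meningeal markers of the 2 ligands called, the other being Wnt4. It was at 155 normalized counts in WTEE sample 10 and at 64.7 in KDEE sample 12, the 2 libraries highest in those markers, and at 5.82 to 46.7 in the other 19. WTSH sample 19, high in Ttr, held 9.05. With both markers in the model its slope on the meningeal markers was 2.41 ± 0.27 (adjusted p 2.92e-05 by edgeR) and its slope on Ttr -0.238 ± 0.054 (adjusted p 0.0221), a change of sign from the slope on Ttr alone of 0.135 ± 0.075 (adjusted p 0.265). Without WTEE sample 10 the slope on Ttr alone was -0.00491. Wnt4 was also highest in WTEE sample 10, at 1250 against 505 to 926 in the other 20 libraries.

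Slopes against Ttr in the other direction were small, and none was called. Fzd3, a receptor of axon guidance and planar polarity, had a slope of -0.043 ± 0.026, Wnt2b one of -0.039 ± 0.021 and Wnt10a one of -0.025 ± 0.021. Fzd3 was at 713, 1000, 953 and 1090 in WTSH, 649, 726, 1100, 1040 and 1190 in KDSH, 335 to 904 (median 787) in WTEE and 496 to 988 (median 778) in KDEE, with WTEE sample 10 the lowest of all. Wnt2b, at 63.6, was also lowest in WTEE sample 10, against 121 in the next lowest library. Wnt10a was at 322, 221, 176 and 282 in WTSH, 138, 198, 260, 246 and 190 in KDSH, 183 to 304 (median 249) in WTEE and 197 to 282 (median 252) in KDEE, and its groups overlapped throughout. Of the remaining members, Ror1, Ror2, Fzd8, Wnt1, Wnt5b, Wnt9b and Wnt16 were not at an unadjusted p under 0.05 in any of the 7 comparisons by edgeR, and none of them was called for the slope on Ttr.

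The other genes of the pathway were followed by 4 lists. No gene of any list was called between groups. For the slope on Ttr, 3 of 22 tested secretion and ligand regulators were called, all positive, beside 6.99% of all genes called (6.19% positive), and the median slope was 0.007 over the list and 0 over all genes. They were Sostdc1 (0.518 ± 0.036, adjusted p 1.35e-09 by edgeR), a secreted Wnt and BMP inhibitor that also stands among the choroid plexus markers, the Wnt carrier Wls (0.062 ± 0.011) and the receptor ligase Rnf43 (0.063 ± 0.014). None of 22 cytoplasmic and planar polarity genes was called, with a median slope of -0.013. Of 14 nuclear effectors 1 was called, Tcf7l2, at 0.077 ± 0.018 (adjusted p 0.00785 by edgeR), a share close to the 6.99% of all genes, with a list median of 0. None of 11 tested targets was called, with a median of -0.001, and Axin2, the common readout of canonical signalling, had a slope of -0.001 ± 0.009. For enrichment averaged over genotypes the smallest p values in the lists were those of the target Id2 (0.29 ± 0.07, adjusted p 0.174 by edgeR), the co-repressor Tle2 (-0.27 ± 0.07, adjusted p 0.179) and the Fzd4 ligand Ndp (0.25 ± 0.09, adjusted p 0.215). By DESeq2 the adjusted p values in this comparison were 0.0283 for Id2, 0.0469 for Tle2 and 0.126 for Ndp. Id2 and Tle2 were thus under the adjusted p threshold with DESeq2 but not with edgeR. They were not called by DESeq2, because a call also needed a log2 fold change beyond its threshold. Axin2 was at -0.02 ± 0.05 for enrichment averaged over genotypes by edgeR.

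The 3 libraries that the study left out were set against the other 21 on a scale fitted over all 24, and no test was made. WTSH samples 4 and 7 held 15800187 and 23318036 counts on genes, below the 27410239 of the lowest of the 21. Of their reads 32.2% and 33% fell on no feature, beside at most 15.7% in the 21. A further 17% and 17.2% were ambiguous between genes, beside at most 6.57% in the 21. In WTSH sample 4, 1 of 38 members was above and 11 were below the range of the 21, beside 30.8% of all genes outside it (3058 above and 3162 below). In WTSH sample 7 these member numbers were 3 and 5, beside 28.1% (2907 genes above and 2766 below). In KDSH sample 6 they were 1 and 2, beside 8.29% (728 genes above and 946 below). KDSH sample 6 held 39585901 counts, with 16.4% of its reads on no feature and 9.4% ambiguous. Its pituitary markers were at 421 CPM, beside 239 CPM in KDSH sample 8 and at most 27.4 CPM in the other libraries.

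The ligand Wnt11 was at 22.2 normalized counts in WTSH sample 4, from 6 raw counts, against 32.5 to 60.8 in the 21 libraries. Wnt6 was at 3.69 there, from 1 raw count, against 5.32 to 143. Dkk2, the inhibitor of Lrp co-receptors, was low in both WTSH libraries, at 22.2 and 18.1 (6 and 7 raw counts) against 27.3 to 50.9. Fzd3 was high in WTSH sample 7, at 1470 against 308 to 1090. Dkk4 was above the range there on 1 raw count, which is under the floor. The others below the range were Fzd2, Fzd5, Fzd8, Ror2, Sfrp1, Wnt5b, Wnt9a and Wnt10b in WTSH sample 4, Fzd6, Fzd9, Sfrp4 and Wnt3 in WTSH sample 7, and Fzd6 and Sfrp2 in KDSH sample 6. Above it were Wnt1 in WTSH sample 4, Wnt2b and Wnt16 in WTSH sample 7 and Wnt11 in KDSH sample 6. Wnt3 in WTSH sample 7 was at 59.4, below all other libraries of its group.

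**Figure D5:**
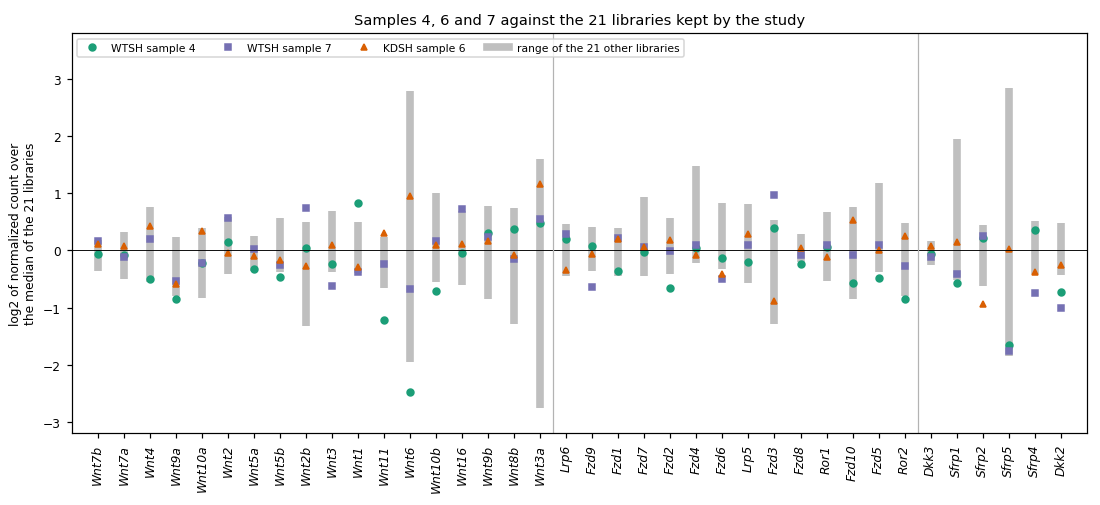
Log2 ratio of the normalized count to the median of the 21 other libraries for the 38 tested members in WTSH samples 4 and 7 and KDSH sample 6 (symbols), with the range of the 21 libraries as grey bars. Wnt11, Wnt6 (on 1 raw count, under the floor) and Dkk2 lie below the bars in WTSH sample 4, and Fzd3 lies above its bar in WTSH sample 7.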

How the data were processed

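RNA was sequenced from 24 hippocampi, 1 mouse per library, after poly-A selection with an unstranded kit, so overlapping genes on opposite strands cannot be told apart. Reads were trimmed, mapped by STAR 2.5 against GRCm38 and assigned to genes by HTSeq 0.6.1p1, and the authors deposited the raw counts per gene symbol. FastQC 0.11.3 is also in the submitters' processing notes. The summary lines of HTSeq were left out of library sizes, and 8.41% to 33% of reads fell on no feature.

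Counts of the 21 libraries that the study kept were fitted in 1 model of 4 groups with edgeR 4.0.16 (quasi-likelihood, TMM, default filter on low counts) under R 4.3.3, over all 20187 genes that passed, with Benjamini-Hochberg adjustment. Genes were called at an adjusted p under 0.05 with a log2 fold change beyond 0.38 in either direction. DESeq2 1.42.0, the study's tool, was the alternative. Levels are TMM-normalized counts or RPKM over the union of exons of GENCODE M21. Slopes used the log2 CPM of Ttr (prior count 2). Exact permutation tests were two-sided on differences of means, and their p values were not adjusted. They are given for members whose groups did not overlap in these same values, so they only describe that separation. Scripts were tested on simulated data.

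Members with values were the 3 with the smallest p in each comparison, the 3 of each class with the highest RPKM, those with the largest slopes on Ttr and those farthest outside the range in samples 4 and 7. The members and lists were chosen with earlier results of these data known. The alternatives are given in the closing section.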

Additional observations from a re-analysis of the deposited data

Results flagged for a closer look

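In 14 of 108 group tests (27 members in 4 groups) the highest or lowest library stood apart from the others of its group by a gap that was large against the group's range. Chance flags about 1 in 20 groups when the members are chosen without regard to their values. Here they were named partly for small p values and large slopes on Ttr in these same libraries. The 14 flags therefore cannot be set against that rate. All values are normalized counts. KDEE sample 12 was highest for Fzd6 (763, next 545), Sfrp1 (1020, next 495) and Fzd4 (1710, next 880), and WTEE sample 13 for Fzd4 (1260, next 638). WTSH sample 19 was highest for Fzd10 (63.4, next 35.1). These 3 libraries were high in Ttr.

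WTEE sample 10, also high in Ttr and lowest in neuronal markers, was lowest for Lrp6 (2230, next 2830) and Wnt2b (63.6, next 142) and highest for Wnt4 (1250, next 752), Wnt6 (155, next 40.1) and Dkk4 (1.93, with the others at 0). The remaining flags were Wnt9a in WTEE sample 21 (313, next 493), Fzd1 in WTSH sample 2 (704, next 580), Wnt7a in WTEE sample 17 (590, next 766) and Dkk4 in KDEE sample 9 (0.954, with the others at 0). The Dkk4 values rest on 2 or fewer counts, and with all others at 0 the gap is the whole range whatever the value.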

How the results depend on the processing

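Between groups, the number of members called stayed at 0 under every alternative except DESeq2, which called 1 (Wnt3, log2 fold change 0.6) for enrichment in MSK1 KD mice. For the slope on Ttr, the 7 calls became 4 with the meningeal markers in the model (Fzd4, Sfrp1 and Sfrp5 of the 7, and Wnt6 with a negative slope) and 0 in the 16 libraries low in Ttr, and ranged from 4 to 9 when 1 library was left out. With the meningeal markers the slopes of Fzd5 (0.0961), Fzd6 (0.0472) and Fzd7 (0.0678) stayed positive without a call. In those 16 libraries the slope changed sign for Fzd2 (-0.0647), Fzd4 (-0.00411), Fzd6 (-0.0289), Fzd7 (-0.000254), Sfrp5 (-0.0149), Wnt6 (-0.264), Wnt3a (-0.0325) and Fzd3 (0.0333). The slope of Wnt6 also changed sign with the meningeal markers (-0.238) and ranged from -0.00491 without WTEE sample 10 to 0.21 without WTSH sample 19. Against those 16 libraries KDSH sample 6 had 8 members outside the range in place of 3. The fits without the libraries high in Ttr, on 16 libraries or with meningeal markers were chosen after seeing the data. The cause of these changes was not tested.

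No paired analysis was possible because no replicate number occurs in more than 1 group. Depth limits Dkk1, Dkk4, Wnt8a and Wnt3a, which rest on 17 or fewer counts per library. The sequencing lane of each library is not given in the sources used here.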
